A study of Mus musculus with 2 samples.

Results

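The 10 genes described here, Inhba, Tgfb1, Tgfbi, Thbs1, Fn1, Plaur, Plau, F10, F7 and F13a1, encode secreted or surface proteins of activin and TGF-β signaling, the provisional extracellular matrix, plasminogen activation and coagulation. They were chosen by name, with earlier results of these data known, and all 10 were found among the 32285 genes of both libraries. Their levels were followed across marker-defined classes of myeloid cells and between WT and Clec7a-/- mice in single-cell RNA-seq (scRNA-seq) of cells that infiltrated colorectal polyps. Clec7a encodes Dectin-1, a receptor for β-glucans on myeloid cells. Its own level was not analysed here.

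The WT library and the library labelled KO, which is from Clec7a-/- mice, both came from C57BL6/J mice 26 weeks old. Both genotypes received azoxymethane (AOM), a carcinogen, followed by dextran sodium sulfate (DSS) at 1% in 3 cycles, and polyps were taken 16 weeks after AOM. No library of mice without AOM and DSS was analysed here. CD11b+ and CD11c+ cells were sorted, and the cells of several mice were pooled into 1 library per genotype. With 1 library per genotype there was no replicate, no test was run, and differences between mice or between library preparations cannot be told apart from differences between genotypes. Every interval below is a 95% interval for counting error only.

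Activin A is a dimer of the chain encoded by Inhba, and it signals, like TGF-β1, through receptor kinases that phosphorylate Smad proteins. TGF-β1 is secreted in a latent complex, from which thrombospondin-1 and certain integrins can release it. Fibronectin, thrombospondin-1 and the TGF-β-induced protein Tgfbi are deposited in the matrix of wounds and tumors. Urokinase, bound to its receptor on the cell surface, converts plasminogen to plasmin, which dissolves fibrin. In the extrinsic coagulation pathway factor VII, with tissue factor, activates factor X, which yields thrombin, and factor XIII crosslinks the fibrin that thrombin forms. Factors VII and X are made mainly by the liver, and monocytes and macrophages are a known source of the factor XIII A chain and of Inhba, Thbs1, Fn1 and Plau in inflamed tissue.

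On GRCm38, in the GENCODE M21 annotation, Inhba is at chr13:16011851-16031621 (plus strand), Tgfb1 at chr7:25687002-25705077 (plus), Tgfbi at chr13:56609523-56639562 (plus) and Thbs1 at chr2:118111876-118127133 (plus). Fn1 is at chr1:71585520-71653200 (minus), Plaur at chr7:24462484-24475968 (plus) and Plau at chr14:20836660-20843385 (plus). F7, at chr8:13026034-13035809, and F10, at chr8:13037308-13056676, lie side by side on the plus strand with 1498 bases between them, and F13a1 is at chr13:36867178-37050244 (minus). All are protein-coding, and each value below covers the whole gene, since counts were deposited per gene. Annotated genes on the opposite strand overlap Inhba, Thbs1, Fn1 and F13a1, and those listed in the files held between 0 and 4 UMIs in the cells kept.

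The 250 bases upstream of a transcription start were read from the RefSeq promoters of GRCm38.p6, which held 7 of the 10 genes. Windows of 5 genes are shown, because Inhba and Plaur led in different classes of cells, Tgfb1 is the other ligand, and F10 and F7 are neighbours of which F10 had many UMIs and F7 few. Each is printed on the plus strand, which is the coding strand of all 5, at chr13:16011601-16011850 for Inhba, chr7:25686752-25687001 for Tgfb1, chr7:24462233-24462482 for Plaur, chr8:13037058-13037307 for F10 and chr8:13025784-13026033 for F7. Capitals mark matches, on either strand, to 5 short motifs. The AP-1 motif, TGANTCA, was found in 6.75% of 32851 windows of the same length. The motif GAGGAAG, bound by ETS factors, was found in 10.6% of them. The GC box was searched as GGGCGG and found in 32.7%. For the TATA box, searched as TATAAA, the share was 12.4%. The Smad box, searched as CAGACA, was found in 17.1%.
Inhba: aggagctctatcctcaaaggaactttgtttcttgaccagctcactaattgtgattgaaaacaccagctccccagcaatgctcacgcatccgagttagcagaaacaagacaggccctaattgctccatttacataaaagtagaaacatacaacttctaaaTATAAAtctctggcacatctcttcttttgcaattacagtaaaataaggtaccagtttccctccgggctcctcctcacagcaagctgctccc
Tgfb1: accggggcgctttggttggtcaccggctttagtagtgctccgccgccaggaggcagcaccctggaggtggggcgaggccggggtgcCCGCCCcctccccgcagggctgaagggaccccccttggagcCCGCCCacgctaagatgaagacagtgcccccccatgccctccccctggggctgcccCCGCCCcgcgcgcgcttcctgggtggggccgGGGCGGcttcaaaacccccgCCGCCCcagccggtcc
Plaur: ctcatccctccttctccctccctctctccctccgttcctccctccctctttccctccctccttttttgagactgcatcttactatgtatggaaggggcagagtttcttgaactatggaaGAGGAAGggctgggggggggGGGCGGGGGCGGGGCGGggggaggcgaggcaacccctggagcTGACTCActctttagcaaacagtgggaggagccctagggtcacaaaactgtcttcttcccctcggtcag
F10: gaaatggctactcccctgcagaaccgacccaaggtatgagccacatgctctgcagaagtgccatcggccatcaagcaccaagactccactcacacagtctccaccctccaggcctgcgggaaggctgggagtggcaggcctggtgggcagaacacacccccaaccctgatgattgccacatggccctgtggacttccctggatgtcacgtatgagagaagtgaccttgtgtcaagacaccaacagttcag
F7: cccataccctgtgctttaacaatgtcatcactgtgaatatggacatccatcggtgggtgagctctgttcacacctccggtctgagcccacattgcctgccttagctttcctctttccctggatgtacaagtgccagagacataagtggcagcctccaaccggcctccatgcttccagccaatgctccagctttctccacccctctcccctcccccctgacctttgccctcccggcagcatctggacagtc
The Inhba window held 1 TATA box, starting 91 bases before the annotated start. The Plaur window held 1 AP-1 match, 1 GAGGAAG and 3 GC boxes that overlap or abut one another, and the Tgfb1 window 5 GC boxes. In the windows of F10 and F7 none of the 5 sets of letters was found. G and C made up 43.2% of the Inhba window, 75.2% of that of Tgfb1, 59.6% of that of Plaur, 57.6% of that of F10 and 56.4% of that of F7, against a median of 52.4% over all windows.

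The WT library held 15869215 UMIs in 3467 barcodes and the Clec7a-/- library 11808230 in 3080. After barcodes outside 200 to 4000 genes, or above 5% mitochondrial UMIs, were dropped, there remained 2696 WT cells with a median of 3412.5 UMIs and 1999 Clec7a-/- cells with a median of 2671. The libraries shared 17 barcode sequences, 10 of them among the kept cells of each. A UMI of Itgam, which encodes CD11b, was found in 63.7% (61.8 to 65.5) of kept WT cells. In the Clec7a-/- library the share was 42.8% (40.6 to 45.0). One of Itgam or Itgax, which encodes CD11c, was found in 83.4% and 69.1%. The part of these differences in depth and in sorted-marker transcripts in the results was not tested. Clustering gave 16 clusters, numbered from 0 by size, with the 10 genes and the genes of their pathways left out of the clustering features. Of the classes used here, cluster 0 was monocyte-like (Ly6c2, Chil3, Plac8, Ccr2; 395 WT and 275 Clec7a-/- cells) and cluster 2 was like cells in transition from monocyte to macrophage (Ccl24, Mmp19, Sdc1, Arg1; 315 and 208 cells). Cluster 0 held 6 of 10 monocyte markers and cluster 2 held 5 of 8 transitional markers. Some were shared: Sdc1 and Arg1 also marked cluster 0, Mmp19 also marked cluster 4, and Ccr2 also marked cluster 2. Clusters 4 (312 and 196 cells) and 7 (222 and 102 cells) both held C1qa, C1qb, C1qc, Ms4a7 and Mertk. They are called macrophage-like and are compared by number. Cluster 4 held 9 of 12 macrophage markers and cluster 7 held 6 of 12. The 10 leading genes of either cluster included no macrophage marker, and those of cluster 4 included Ppbp, a platelet gene. Cluster 1 was neutrophil-like (Ngp, Ly6g, Retnlg, S100a8; 510 and 95 cells), and cluster 6 held markers of neutrophils and monocytes together (275 and 64 cells). Cluster 5 (162 and 310 cells) had 3 neutrophil markers, Csf3r, Hdc and Acod1, but its median depth in the WT library, 1101 UMIs, was 0.323 of that library's, and it stays unnamed. Clusters 3, 8 and 10 formed a DC-like class of 362 and 563 cells. The T-cell-like cluster 9 (67 and 121 cells), whose cells should lack most of the 10 transcripts, gives the level that free RNA can reach. Its median depth, 1656.5 UMIs, was below those of clusters 4 and 7, 5840 and 9608 UMIs, so this level is only a rough guide for deeper cells.

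Platelets, fibroblasts and endothelial cells are other known sources of these transcripts. Of the 6 platelet and megakaryocyte markers, Gp9 had 0 UMIs in both libraries and Gp1bb, Tubb1 and Gp6 between 0 and 2 in each. Itga2b had 42 and 64 UMIs. Ppbp had 853 and 446 UMIs, and 1013 of these were in cluster 4. Of the 6 fibroblast markers Pdgfra had 0 UMIs in both libraries and Col1a1 45 in each, and of the 6 endothelial markers Cldn5 had 0 in both and Plvap 0 and 2. Esam had 46 and 54 UMIs. Kdr had 132 and 69 UMIs, 99 of them in the monocyte-like cluster. Summed over each list, the platelet level was 73.1 CPM (UMIs of a gene per 1000000 UMIs) in WT and 67.6 CPM in Clec7a-/- cells, against 5.21 and 6.75 CPM for fibroblasts and 15.2 and 16.9 CPM for endothelial cells.

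With both libraries together and among clusters of at least 50 cells, 9 of the 10 genes had their highest level in the monocyte-like, transitional-like or macrophage-like clusters, and Plaur had it in the neutrophil-like cluster. Of these, Inhba, Tgfb1, Thbs1, F10, F7 and F13a1 were highest in the monocyte-like cluster, Fn1 in the transitional-like cluster, and Tgfbi and Plau in macrophage-like cluster 7. The share of all genes highest in these clusters is not given here, so the count is not read as a trait of the 10 genes. For Tgfb1 and F7 the lead over T-cell-like cells was within counting error, as given below. Levels, in CPM, are relative to the total counted in the class and library named. They are not divided by transcript length, and so they are compared between cells and not between genes. A cluster of 35 cells, too small for this order, exceeded cluster 7 for Tgfbi (1491 CPM) and Plau (669 CPM). DC-like cells were at or below the T-cell-like level for most of the genes, Inhba in the WT library being an exception. With both libraries together the Inhba intervals overlapped, 41.6 CPM (35.95 to 47.88) in DC-like and 19.4 CPM (8.375 to 38.22) in T-cell-like cells.

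**Figure D1:**
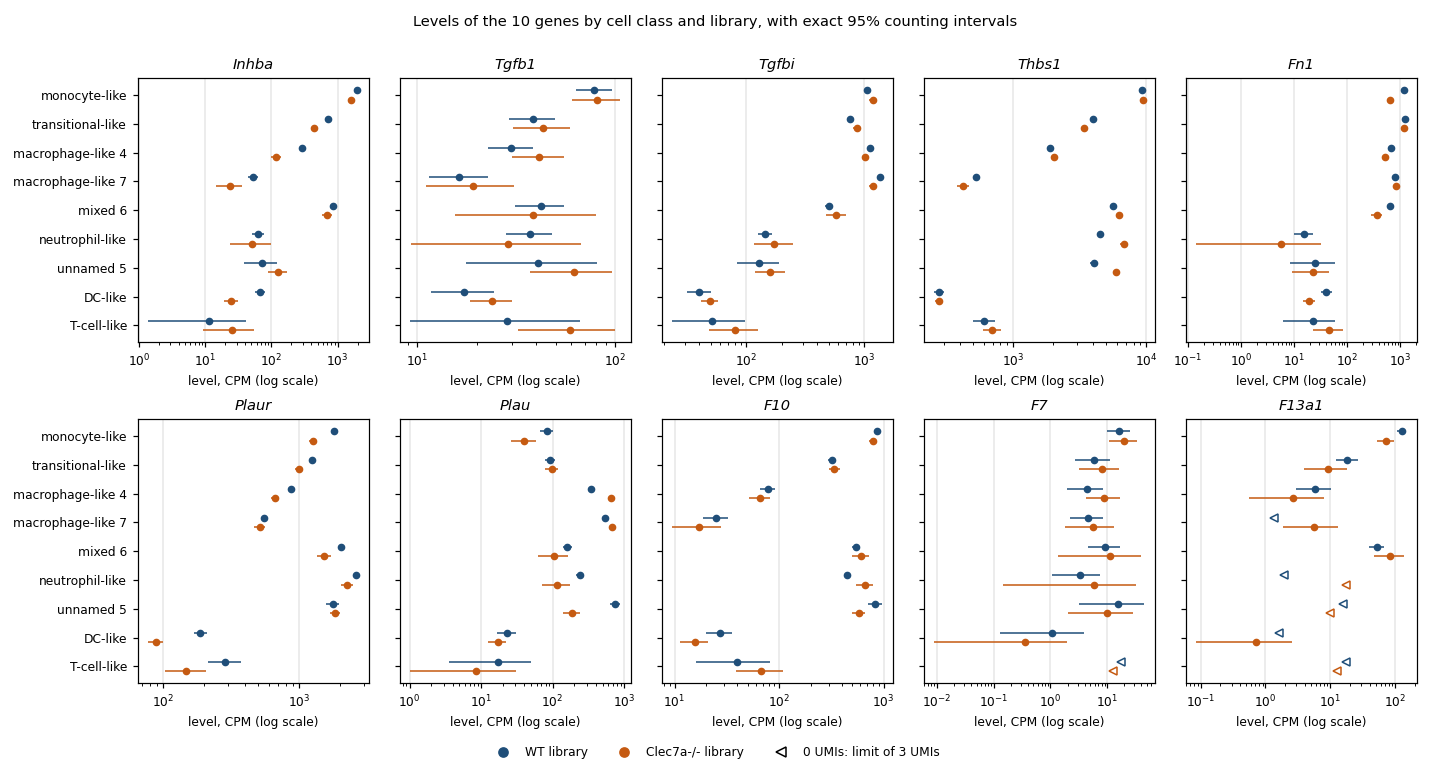
Level of each gene (CPM, log axis) in 9 classes of cells in the WT library (blue) and the Clec7a-/- library (orange), with exact 95% counting intervals. Open triangles mark a count of 0 and stand at the limit of 3 UMIs. In both libraries monocyte-like cells lead for Inhba, Thbs1 and F10 and neutrophil-like cells for Plaur, while F13a1, Tgfbi and Plau have a different leading class in each library, with overlapping intervals for the leading classes of F13a1 and Tgfbi in the Clec7a-/- library.

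Inhba, the activin A chain, was the gene most concentrated in monocyte-like cells among the abundant ones. It stood at 1951 CPM (1871 to 2033) in the monocyte-like cells of the WT library and 1615 CPM (1520 to 1716) in those of the Clec7a-/- library. The transitional-like cells had 707 and 435 CPM, cluster 4 had 288 and 116 CPM, and macrophage-like cluster 7 had 53.3 and 23.7 CPM. Listed in this order, each of these 4 clusters had a lower level than the one before it in both libraries, with intervals that did not overlap. The order is that of the list, and no trajectory was computed. Cluster 6, with markers of neutrophils and monocytes together, is not in that list. It had 857 CPM (806 to 912) and 694 CPM (578 to 826), above transitional-like cells in both libraries and below monocyte-like cells. Neutrophil-like cells had 63.7 and 51.7 CPM, DC-like cells 67.5 and 24.5 CPM, and T-cell-like cells 11.4 and 25.3 CPM. Of all Inhba UMIs in kept cells, the monocyte-like cluster held 41.9% in the WT and 55.8% in the Clec7a-/- library. After each cell was thinned to 1000 UMIs, 55.1% (51.0 to 59.1) of monocyte-like cells and 30.7% (26.7 to 34.9) of transitional-like cells had an Inhba UMI, against 1.36% (0.165 to 4.83) of T-cell-like cells. In cluster 6 the share was 40.7% (35.4 to 46.1).

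Between libraries, Inhba was lower in Clec7a-/- cells in every class compared that had at least 100 UMIs. In neutrophil-like cells, however, the interval spanned 0 and the ratio ran from −0.78 to 0.48 over 14 alternatives. A cluster of 17 WT and 6 Clec7a-/- cells, too small to be compared as a class, went the other way. Its Inhba level was 1348 CPM (1064 to 1685) in WT and 3489 CPM (2636 to 4531) in Clec7a-/- cells. In cluster 5, below 100 UMIs with 14 and 39, Inhba was also higher in Clec7a-/- cells, at 71.5 and 127 CPM. The ratio there was 0.80 (−0.08 to 1.82), or 1.39 with TMM scaling, and its interval spanned 0. The log2 ratio, Clec7a-/- over WT, was −0.27 (−0.38 to −0.17) in monocyte-like cells, −0.70 (−0.87 to −0.53) in transitional-like cells and −1.31 (−1.59 to −1.03) in cluster 4. In cluster 7 it was −1.14 (−1.91 to −0.49) from 138 UMIs, and there the Clec7a-/- level was no higher than that of T-cell-like cells. Clusters 4 and 7 were the macrophage-like clusters in which Inhba passed a 2-fold difference. The background is small: in cluster 4, 31 of 4022 genes with at least 100 UMIs (0.771%) were at least 2-fold lower and 0.348% at least 2-fold higher in the Clec7a-/- library, and in cluster 7 these shares were 0.787% and 0.127% of 3937 genes. Over 13 alternatives the cluster 4 ratio ran from −1.69 to −1.01, and that of cluster 7 from −1.85 to −0.84.

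Tgfb1, the ligand TGF-β1, had fewer than 100 CPM in every class named. It had 78.3 CPM (63.1 to 96.2) in monocyte-like cells of the WT library and 80.8 CPM (60.5 to 106) in those of the Clec7a-/- library, and 38.3 and 43.3 CPM in transitional-like cells. Macrophage-like cluster 7 was lowest among the macrophage-like and monocyte-like clusters, with 16.4 and 19.2 CPM. T cells make TGF-β1 themselves, and T-cell-like cells had 28.6 CPM (5 UMIs) and 59.0 CPM (14 UMIs). With both libraries together only the monocyte-like level, 79.2 CPM (66.8 to 93.3), lay above those of cluster 6, the transitional-like, neutrophil-like, macrophage-like and DC-like clusters beyond counting error, and it did not lie above those of cluster 5 or the T-cell-like cluster. Over all kept cells Tgfb1 had 33.5 and 35.7 CPM, a log2 ratio of 0.10 (−0.13 to 0.32), which was −0.07 with TMM scaling. A difference between the libraries was not detectable at this depth.

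Thbs1, thrombospondin-1, which can release TGF-β1 from its latent complex, had the most UMIs of the 10 genes, 54552 in kept cells. Its level was 9309 CPM (9135 to 9486) in WT and 9392 CPM (9159 to 9630) in Clec7a-/- monocyte-like cells, a log2 ratio of 0.01 (−0.03 to 0.06). Cluster 6 had 5609 and 6219 CPM. Neutrophil-like cells, which had little Inhba or Fn1, had 4445 and 6738 CPM, and cluster 5 had 4040 and 5958 CPM. Transitional-like cells had 3961 and 3397 CPM, cluster 4 had 1889 and 2008 CPM, and cluster 7 had 526 and 422 CPM. The last of these is no higher than the T-cell-like level of 605 CPM (496 to 732) and 691 CPM (589 to 805). After thinning each cell to 1000 UMIs, however, a Thbs1 UMI was found in 30.2% (25.3 to 35.6) of cluster 7 cells and 19.7% (13.6 to 27.1) of T-cell-like cells, and before thinning in 69.8% and 28.7%, at median depths of 9608 and 1656.5 UMIs. Thbs1 was higher in the Clec7a-/- library in neutrophil-like cells, with a log2 ratio of 0.60 (0.51 to 0.69), or 0.35 with TMM scaling. In cluster 5 it was 0.56 (0.44 to 0.68), or 1.15 with TMM scaling, and it ran from −0.51 to 1.15 over 14 alternatives. A Thbs1 UMI was found after thinning in 551 of 599 neutrophil-like cells, and the share was 93.5% (90.3 to 95.9) in cluster 6 and 90.5% (87.9 to 92.7) among monocyte-like cells.

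Tgfbi, a matrix protein named for its induction by TGF-β, was a gene of macrophages and monocytes alike. Its level was 1364 CPM (1316 to 1414) in WT and 1172 CPM (1102 to 1245) in Clec7a-/- cells of cluster 7, and 1115 and 1008 CPM in cluster 4. Monocyte-like cells had 1042 CPM (985 to 1103) and 1178 CPM (1096 to 1264), and with both libraries together they could not be told from cluster 4 (1091 CPM, 1044 to 1140, against 1078 CPM, 1042 to 1114). Transitional-like cells had 755 and 867 CPM, neutrophil-like cells 143 and 172 CPM, DC-like cells 40.0 and 49.1 CPM, and T-cell-like cells 51.4 and 80.1 CPM. The libraries differed little within a class. The log2 ratio was 0.18 (0.04 to 0.31) in monocyte-like and 0.20 (0.07 to 0.33) in transitional-like cells, and −0.15 (−0.25 to −0.04) in cluster 4 and −0.22 (−0.32 to −0.12) in cluster 7.

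Fn1, fibronectin, was high in monocyte-like, transitional-like and macrophage-like cells and near the background in neutrophil-like cells. It stood at 1256 CPM (1201 to 1314) in WT and 1194 CPM (1123 to 1268) in Clec7a-/- transitional-like cells. Monocyte-like cells had 1215 CPM (1152 to 1280) and 651 CPM (591 to 716), cluster 7 had 791 and 839 CPM, and cluster 4 had 689 and 516 CPM. Cluster 6 had 659 and 364 CPM. Neutrophil-like cells had 15.6 CPM in the WT library, from 24 UMIs, and 1 UMI in the Clec7a-/- library, and neither lay above the T-cell-like level (22.8 and 46.4 CPM). In the WT library the monocyte-like and transitional-like levels overlapped, and in the Clec7a-/- library they did not. The log2 ratio between libraries was −0.90 (−1.06 to −0.74) in monocyte-like cells, −0.07 (−0.18 to 0.04) in transitional-like cells, −0.42 (−0.56 to −0.28) in cluster 4 and 0.08 (−0.04 to 0.21) in cluster 7. Over the alternatives it ran from −1.24 to −0.69 in monocyte-like cells and from −1.20 to −0.17 in cluster 4, and so passed 2-fold in some of them. The share of thinned monocyte-like cells with an Fn1 UMI was 51.0% (45.7 to 56.2) in the WT and 33.5% (27.6 to 39.8) in the Clec7a-/- library, and that of transitional-like cells was 50.8% (45.1 to 56.6) and 53.1% (46.1 to 60.1).

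Plaur, the urokinase receptor, was the one gene of the 10 that was highest in neutrophil-like cells, with 2649 CPM (2568 to 2732) in the WT and 2279 CPM (2060 to 2514) in the Clec7a-/- library. Cluster 6 had 2030 and 1531 CPM and cluster 5 had 1778 and 1843 CPM. Monocyte-like cells had 1805 and 1269 CPM, transitional-like cells 1258 and 999 CPM, cluster 4 had 881 and 668 CPM, and cluster 7 had 555 and 515 CPM. T-cell-like cells had 286 CPM (212 to 377) and 148 CPM (103 to 205). Every class named so far lay above that background in both libraries, and DC-like cells, with 187 and 87.8 CPM, lay below it. Plaur was lower in Clec7a-/- cells by a log2 ratio of −0.51 (−0.63 to −0.39) in monocyte-like, −0.33 (−0.45 to −0.22) in transitional-like and −0.22 (−0.37 to −0.07) in neutrophil-like cells, and by −0.40 (−0.52 to −0.28) in cluster 4. In cluster 7 the ratio was −0.11 (−0.27 to 0.05) and in cluster 5 0.05 (−0.14 to 0.25), or 0.64 with TMM scaling, so that both intervals spanned 0. In T-cell-like cells, from 50 and 35 UMIs, the ratio was −0.95 (−1.62 to −0.30), beside −0.97 (−1.02 to −0.92) over all kept cells.

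In the main clustering, Plau, urokinase itself, was highest in macrophage-like cluster 7, where its receptor was lowest among the monocyte-like, transitional-like and macrophage-like clusters. In the WT library alone, the unnamed cluster 5 had more, 751 CPM (634 to 883), against 186 CPM (141 to 240) in the Clec7a-/- library. Its level was 539 CPM (509 to 571) in WT and 671 CPM (618 to 728) in Clec7a-/- cells of cluster 7, and 346 CPM (322 to 373) and 660 CPM (614 to 710) in cluster 4. Monocyte-like cells had 82.6 and 39.6 CPM, transitional-like cells 93.5 and 97.9 CPM, and neutrophil-like cells 239 and 115 CPM. Clusters 4 and 7 together held 68.4% of all Plau UMIs in kept cells, and in thinned cells 38.0% (32.7 to 43.5) of cluster 7, 27.3% (23.3 to 31.6) of cluster 4 and 5.08% (3.48 to 7.14) of monocyte-like cells had one, against 1.36% (0.165 to 4.83) of T-cell-like cells. The direction of the difference between libraries changed with the class. Plau was higher in the Clec7a-/- library in cluster 4, with a log2 ratio of 0.93 (0.78 to 1.08), and in cluster 7, with 0.32 (0.17 to 0.46). It was lower in monocyte-like cells, with −1.04 (−1.75 to −0.42) from 96 and 26 UMIs, in neutrophil-like cells, with −1.02 (−1.79 to −0.41) from 368 and 20 UMIs, and in cluster 5, with −2.01 (−2.48 to −1.57) from 147 and 57 UMIs. Each of these last 3 passed 2-fold. Among monocyte-like cells 1.11% of 2713 genes were at least 2-fold lower and 0.221% at least 2-fold higher. Among neutrophil-like cells these shares were 2.99% and 2.49% of 1770 genes. In cluster 5, where they were 12.3% and 14.9% of 861 genes, passing 2-fold set a gene apart little.

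F10, coagulation factor X, which cleaves prothrombin, had 4726 UMIs in kept cells. It had 869 CPM (817 to 925) in WT and 786 CPM (720 to 857) in Clec7a-/- monocyte-like cells, 833 and 580 CPM in cluster 5, 451 and 660 CPM in neutrophil-like cells and 323 and 339 CPM in transitional-like cells. Cluster 6 had 544 and 606 CPM. Cluster 4 had 77.8 and 65.2 CPM and cluster 7 had 25.1 and 17.0 CPM, against 40.0 CPM (16.1 to 82.4) and 67.4 CPM (38.5 to 110) in T-cell-like cells. F10 thus stood high in monocyte-like, transitional-like and neutrophil-like cells. In cluster 7 its CPM was not above that of T-cell-like cells, whose depth was lower. In cluster 4 this held in the Clec7a-/- library. In the WT library the cluster 4 level was higher, but it lay within the T-cell-like interval, which rests on 7 UMIs. Before thinning, 21.3% (17.8 to 25.1) of cluster 4 and 13.3% (9.77 to 17.5) of cluster 7 cells had an F10 UMI. Among T-cell-like cells the share was 9.04% (5.36 to 14.1), and the median depths were 5840, 9608 and 1656.5 UMIs, in that order. The share of thinned cells with an F10 UMI was 50.8% (46.8 to 54.9) in monocyte-like, 33.6% (29.8 to 37.5) in neutrophil-like and 1.54% (0.503 to 3.56) in cluster 7, and it was 4.76% (1.94 to 9.57) in T-cell-like cells. In cluster 4 the thinned share was 5.84% (3.89 to 8.39). Between libraries the log2 ratio was −0.14 (−0.30 to 0.01) in monocyte-like and 0.07 (−0.14 to 0.28) in transitional-like cells. In neutrophil-like cells it was 0.55 (0.25 to 0.83), or 0.30 with TMM scaling, and in cluster 5 it was −0.52 (−0.84 to −0.21), which turned to 0.07 with TMM scaling.

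F7, coagulation factor VII, the gene just upstream of F10, had 110 UMIs in kept cells, 68 in the WT and 42 in the Clec7a-/- library. The monocyte-like cells held 19 and 13 of them, 16.4 CPM (9.85 to 25.5) and 19.8 CPM (10.6 to 33.9). The T-cell-like cells held 0 UMIs, which allows up to 17.1 and 12.6 CPM. F7 was therefore detected, but in 1.97% (1.02 to 3.41) of thinned monocyte-like cells, a share whose interval overlaps that of T-cell-like cells (0 of 147 cells, with an upper bound of 2.48%). Over all kept cells the log2 ratio was 0.01 (−0.59 to 0.58), so that a difference below about 1.5-fold was not detectable. Proz, which lies next to F10, had 88 UMIs, and the nearby housekeeping genes Cul4a and Pcid2 had 603 and 193.

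F13a1, the A chain of coagulation factor XIII, was the member with the largest share of its UMIs in monocyte-like cells. They held 57.1% of its 336 UMIs, with 125 CPM (105 to 147) in the WT and 71.6 CPM (52.6 to 95.3) in the Clec7a-/- library. Cluster 6 had 51.2 and 82.6 CPM, transitional-like cells 18.2 and 9.11 CPM, and cluster 4 had 5.80 and 2.68 CPM. Neutrophil-like cells had 0 UMIs, which allows up to 1.95 CPM in the WT and 17.2 CPM in the Clec7a-/- library, and T-cell-like cells had 0. With both libraries together, the level was higher in monocyte-like than in transitional-like cells, and in these than in cluster 4, beyond counting error. In monocyte-like cells the log2 ratio between libraries was −0.79 (−1.31 to −0.32).

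**Figure D2:**
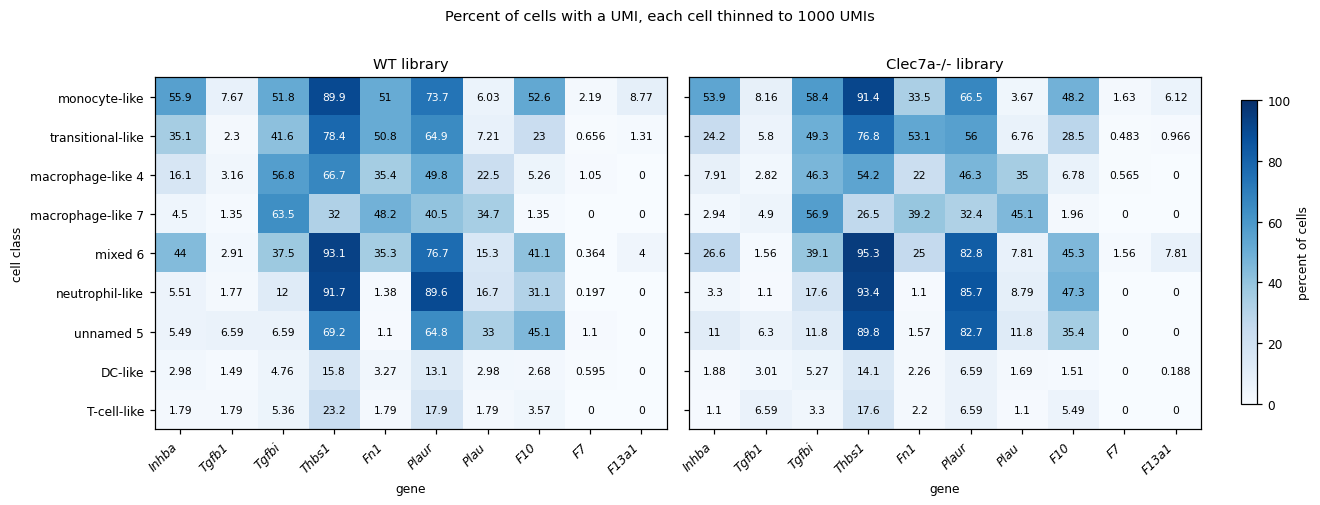
Percent of cells with at least 1 UMI of each gene (columns) in 9 classes (rows), in the WT library (left) and the Clec7a-/- library (right), after each cell was thinned to 1000 UMIs. The T-cell-like row is the background. Thbs1 and Plaur were found in most monocyte-like and neutrophil-like cells of both libraries, Inhba and Fn1 in monocyte-like and transitional-like cells and in few neutrophil-like cells, and F7 in few cells of any class.

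In the highest class of each gene, the thinned share lay above the T-cell-like share beyond counting error for 8 of the 10 genes, the exceptions being Tgfb1 and F7. Cells with fewer than 1000 UMIs were left out of these shares. They numbered 60 of 670 in the monocyte-like cluster and 254 of 472 in cluster 5. Without thinning this held for 9 of the 10. Each class was picked as the highest in these same data, so an excess was partly built in. No share of all genes is given beside these counts, and they are a description only.

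The first comparison between libraries, over all kept cells, asked how much of each transcript the sorted cells held per UMI with and without Dectin-1. All but Tgfb1 and F7 were lower in the Clec7a-/- library beyond counting error. Plaur had the log2 ratio farthest from 0, −0.97, from 1181 CPM in the WT to 603 CPM in the Clec7a-/- library. F13a1 followed with −0.90 (−1.28 to −0.54), from 20.6 to 10.98 CPM, and Inhba with −0.81 (−0.89 to −0.73), from 440 to 251 CPM. Fn1 had −0.60 (−0.66 to −0.54), F10 −0.57 (−0.67 to −0.48), Thbs1 −0.43 (−0.46 to −0.40), Tgfbi −0.33 (−0.38 to −0.28) and Plau −0.14 (−0.22 to −0.05). None of the 10 passed 2-fold, the background being 1.71% of 8470 genes at least 2-fold lower and 2.42% at least 2-fold higher. The median log2 ratio was −0.50 over the 10 genes and 0.13 over the 8470. The whole interval was below 0 for 8 of the 10 genes and for 17.4% of the 8470. The 10 genes were chosen with earlier results of these data known, and the 8470 were not matched to them for UMIs. These comparisons with the 8470 are therefore a description only. TMM scaling, which sets the scale by the bulk of genes, lowers every one of these ratios by 0.17.

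The libraries differed in their mix of clusters. The neutrophil-like cluster made up 18.9% of the kept WT cells and 4.75% of the Clec7a-/- cells. Cluster 6 made up 10.2% and 3.20%, and the monocyte-like cluster 14.7% and 13.8%. Clusters 4 and 7 made up 11.6% and 9.8%, and 8.23% and 5.1%. Others were larger in the Clec7a-/- library. Cluster 5 made up 6.01% and 15.5%. The DC-like clusters 3, 8 and 10 made up 8.38% and 14.4%, 3.04% and 7.9%, and 2.0% and 5.9%. The part of each class in the ratios was not tested. With the mix of clusters held at that of the WT library, the ratio moved toward or past 0 for 8 of the 10 genes, all but Tgfb1 and F7. Inhba stayed lower, at −0.43 (−0.51 to −0.34), as did Plaur, at −0.32 (−0.38 to −0.26), and Fn1, at −0.30 (−0.36 to −0.23). Tgfbi was at −0.01 (−0.06 to 0.05), F10 at 0.08 (−0.03 to 0.20) and F13a1 at −0.16 (−0.58 to 0.25). Thbs1 was at 0.14 (0.11 to 0.18) and Plau at 0.21 (0.12 to 0.30). The median over the 10 genes was 0.04, against 0.02 over the 8470. The TMM shift of 0.17, taken from all kept cells with their unequal mixes, would lower all genes alike and put Thbs1 at −0.02. Inhba, Plaur and Fn1 were thus the members that were lower in the Clec7a-/- library beyond counting error both with and without the mix held fixed.

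**Figure D3:**
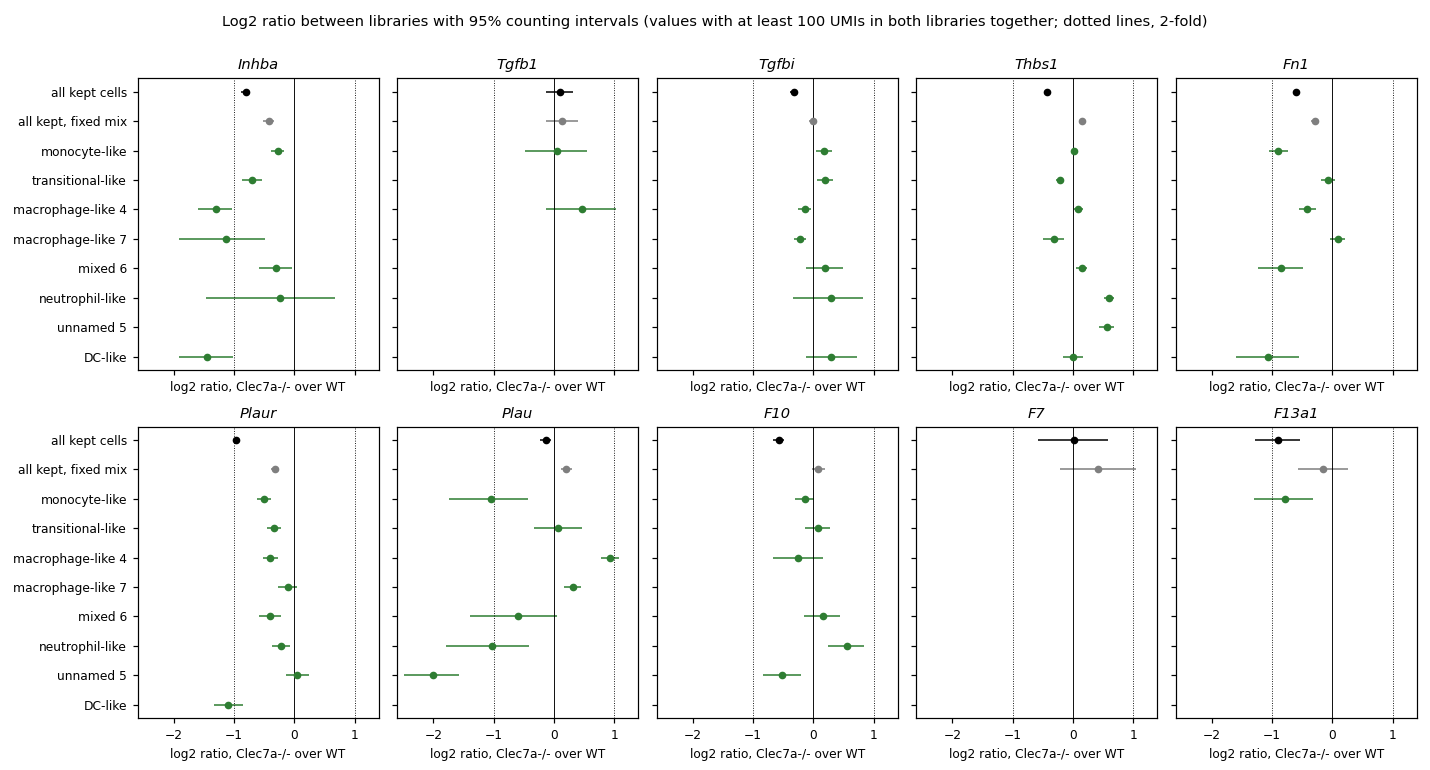
Log2 ratio of each gene, Clec7a-/- over WT library, over all kept cells (black), with the mix of clusters held at that of the WT library (grey) and within each class (green), for values with at least 100 UMIs in both libraries together. Bars are 95% counting intervals and dotted lines mark 2-fold. Inhba lies left of 0 in every class shown, while Plau lies right of 0 in clusters 4 and 7 and left of 0 in monocyte-like cells, neutrophil-like cells and cluster 5.

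Within classes, a member was at least 2-fold lower in the Clec7a-/- library in 8 of the comparisons with at least 100 UMIs and at least 2-fold higher in 0. These were Plau in monocyte-like cells (1 of 9 members tested), neutrophil-like cells (1 of 6) and cluster 5 (1 of 4), Inhba in clusters 4 (1 of 8) and 7 (1 of 6), and Inhba, Fn1 and Plaur in DC-like cells. By class, the share of all genes at least 2-fold lower ran from 0.72% to 12.3%, and that at least 2-fold higher from 0.127% to 14.9%. No share of all genes is given for the classes together, so the totals of 8 and 0 are a description only. In transitional-like cells, where 1.17% of 3339 genes were at least 2-fold lower and 0.419% at least 2-fold higher, 0 of the 7 members tested passed. In cluster 6, with 2.02% and 0.83% of 1927 genes, 0 of 7 passed as well. Among DC-like cells 3 of 5 members passed against 0.72% of 4863 genes lower and 0.452% higher. These 3 values rest on low levels. Inhba had 67.5 CPM in WT and 24.5 CPM in Clec7a-/- DC-like cells, Fn1 had 41.1 and 19.6 CPM, and Plaur had 187 and 87.8 CPM. In the Clec7a-/- library each was at or below the T-cell-like level. In the WT library Plaur was not above it, so that by CPM Plaur is read as background. Fn1 in the WT library was higher in DC-like cells than the T-cell-like 22.8 CPM, which rests on 4 UMIs. These are too few to tell Fn1 in DC-like cells from background. Before thinning, 26.3% (23.5 to 29.2) of DC-like and 16.5% (11.5 to 22.6) of T-cell-like cells had a Plaur UMI, at unlike depths. After thinning, these shares were 9.11% (7.28 to 11.2) and 10.9% (6.35 to 17.1), with overlapping intervals. Inhba in WT DC-like cells lay above the T-cell-like level of 11.4 CPM (1.38 to 41.3), and it was highest in cluster 3, with 124 and 46.3 CPM. With no filter on cells, the Fn1 ratio in DC-like cells turned from −1.07 to 0.27.

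TMM scaling moved the median of all genes by more than 0.1 in 3 of the classes. It lowered the ratios of neutrophil-like cells by 0.25 and those of cluster 6 by 0.15, and it raised those of cluster 5 by 0.59. Before TMM scaling, the median log2 ratio of all genes was 0.01 in neutrophil-like cells, 0.01 in cluster 6 and −0.02 in cluster 5. In these 3 classes the TMM values are therefore given as an alternative scale only. In the monocyte-like, transitional-like, macrophage-like and DC-like comparisons the shift was at most 0.08. In cluster 6 the log2 ratio was −0.85 (−1.24 to −0.49) for Fn1, −0.40 (−0.59 to −0.23) for Plaur and −0.30 (−0.58 to −0.04) for Inhba. These lay on the same side as in monocyte-like cells.

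The profiles of the 10 genes over 24 points, each 1 cluster with at least 20 cells of 1 library, were compared by Spearman's rank correlation as a description. The points share 2 libraries, and clusters of 1 library share its free RNA. Thbs1 and F10 were each other's nearest gene among 8470, with a rho of 0.95. Plaur had a rho of 0.89 with Thbs1 and 0.88 with F10, and Tgfbi one of 0.80 with Fn1. Plau was the member least like the others, with a rho between 0.08 and 0.66. The genes most like each member were Ptgs2, Cers6 and Smcr8 for Inhba (rho 0.91, 0.89 and 0.88), Brd2, Ipmk and Clip1 for Tgfb1 (0.90, 0.89 and 0.88), and Apobec1, Pdpn and Csf1r for Tgfbi (0.95, 0.94 and 0.94). For Thbs1 they were F10, Arid5b and Ier3 (0.95, 0.94 and 0.93), for Fn1 Rai14, Mmp14 and Lrpap1 (0.93, 0.91 and 0.90), and for Plaur Itgam, Hmox1 and Clec4e (0.98, 0.97 and 0.97). Plau was most like Cd300c2, Cdk18 and Cd84 (0.90, 0.89 and 0.89), and F10 most like Thbs1, Plekhm3 and Rybp (0.95, 0.94 and 0.93). For the sparse F7 they were Phf23, Agfg2 and Nbr1 (0.89, 0.88 and 0.87), and for F13a1 Plekhg4, Btg3 and Ryr1 (0.83, 0.82 and 0.82).

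The other genes of these pathways, 103 in all, were taken from lists chosen with earlier results of these data known. Of these, 53 had at least 100 UMIs over the kept cells, 13 had none, and the median log2 ratio of the 53 was −0.06. Of the 53, 2 were at least 2-fold lower and 2 at least 2-fold higher in the Clec7a-/- library, against 1.71% and 2.42% of all genes. Inhba and Tgfb1 were the only ligands of their list with at least 100 UMIs. Inhbc, Inha and Mstn had 0, Inhbb and Inhbe had 1 each, Tgfb2 had 6, Tgfb3 had 22 and Gdf11 had 20. Follistatin (Fst), which binds and blocks activin, had 13 UMIs and Fstl3 had 14. Genes named with fewer than 100 UMIs were chosen after their counts were seen.

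Of the proteins that bind or activate latent TGF-β, Nrros, which anchors it on myeloid cells, had 220 and 213 CPM, a log2 ratio of −0.05 (−0.14 to 0.04). Itgav, an integrin chain that releases TGF-β, had 157 and 132 CPM, −0.25 (−0.36 to −0.14), and the protease Furin had 149 and 136 CPM, −0.13 (−0.24 to −0.02). The signaling receptors and Smads were present at low levels, 9 of 14 with at least 100 UMIs. Tgfbr1 had 100.1 and 87.6 CPM, Smad4 had 94.9 and 102 CPM, and the inhibitory Smad7 had 93.7 and 75.5 CPM. None of them passed 2-fold, and the interval was below 0 for 4, Acvr1b, Smad7, Smad3 and Tgfbr1, and above 0 for 1, Acvr1, against 17.4% and 35.9% of the 8470 genes. With the mix of clusters held fixed, Smad3 turned to 0.34 and Tgfbr1 to 0.14, Smad7 was at 0.01, Acvr1b at −0.11 and Acvr1 at 0.25. Acvr1, Acvr1b and Smad3 are named here after their values were seen.

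The genes known to respond to TGF-β did not move together. Of 7 with at least 100 UMIs, 3 were lower beyond counting error (Ski, Tgif1 and Skil) and 3 higher (Pmepa1, Smurf1 and Id3), with a median of −0.16, against 17.4% and 35.9% of all genes. Id3, a target of the Smad pathway, had the largest ratio, 1.27 (0.91 to 1.64), from 8.87 to 21.4 CPM, and it stayed at 1.19 with the mix of clusters held fixed. Tgif1 had −0.38 (−0.44 to −0.33) over all cells and 0.02 with the mix held fixed, where Ski was at −0.07, Skil at −0.04 and Pmepa1 at 0.11, and Smurf1 turned from 0.27 to −0.27. Ski and Smurf1 are named after their values were seen.

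Of the matrix and matricellular genes other than the members, 4 of 10 had at least 100 UMIs. Spp1, osteopontin, had 1022 and 590 CPM, −0.79 (−0.84 to −0.74), and was at −0.25 with the mix held fixed. Its highest level was in neutrophil-like cells, 2122 CPM. Ecm1, extracellular matrix protein 1, went from 45.0 to 19.7 CPM, −1.19 (−1.46 to −0.93), and was at −0.98 with the mix held fixed. Vcan, versican, was at −0.06 (−0.44 to 0.31). Postn, Vtn and Thbs2 had 0 UMIs. The receptors of fibronectin and thrombospondin were all measured, with 3 of 10 lower (Cd36, Cd44 and Itgav) and 4 higher (Cd47, Itgb1, Itgb7 and Itga4) beyond counting error, against 17.4% and 35.9% of all genes. With the mix held fixed, Itga4 turned from 0.82 to −0.08, Itgb1 from 0.15 to −0.08 and Cd47 from 0.12 to −0.17, and Itgb7 was at 0.22. The thrombospondin receptor Cd36 had 234 and 151 CPM, −0.63 (−0.73 to −0.53), and −0.84 with the mix held fixed. Cd44 had 761 and 510 CPM, −0.58 (−0.63 to −0.52), and 0.12 with the mix held fixed. Itga4, Itgb7 and Cd47 are named after their values were seen.

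Beside Plau and Plaur, 6 of 10 genes of plasminogen activation had at least 100 UMIs. Of these, 2 were lower and 3 higher beyond counting error, against 17.4% and 35.9% of all genes. The plasminogen receptor Plgrkt had 105 and 130 CPM, 0.31 (0.19 to 0.43). Anxa2 and S100a10, which form a surface complex that binds plasminogen, had 0.30 (0.22 to 0.38) and 0.15 (0.05 to 0.24). With the mix held fixed, Plgrkt was at 0.18, Anxa2 at 0.02 and S100a10 at 0.15. Plg, plasminogen, had 1 UMI, and the inhibitor Serpinb2 had 528. Serpinb2, a leading gene of the monocyte-like cluster, was lower in the Clec7a-/- library, at −0.90 (−1.20 to −0.61), and −0.61 with the mix held fixed. The clearance receptor Lrp1, named after its values were seen, was at −0.38 (−0.55 to −0.22), and −0.17 with the mix held fixed.

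**Figure D4:**
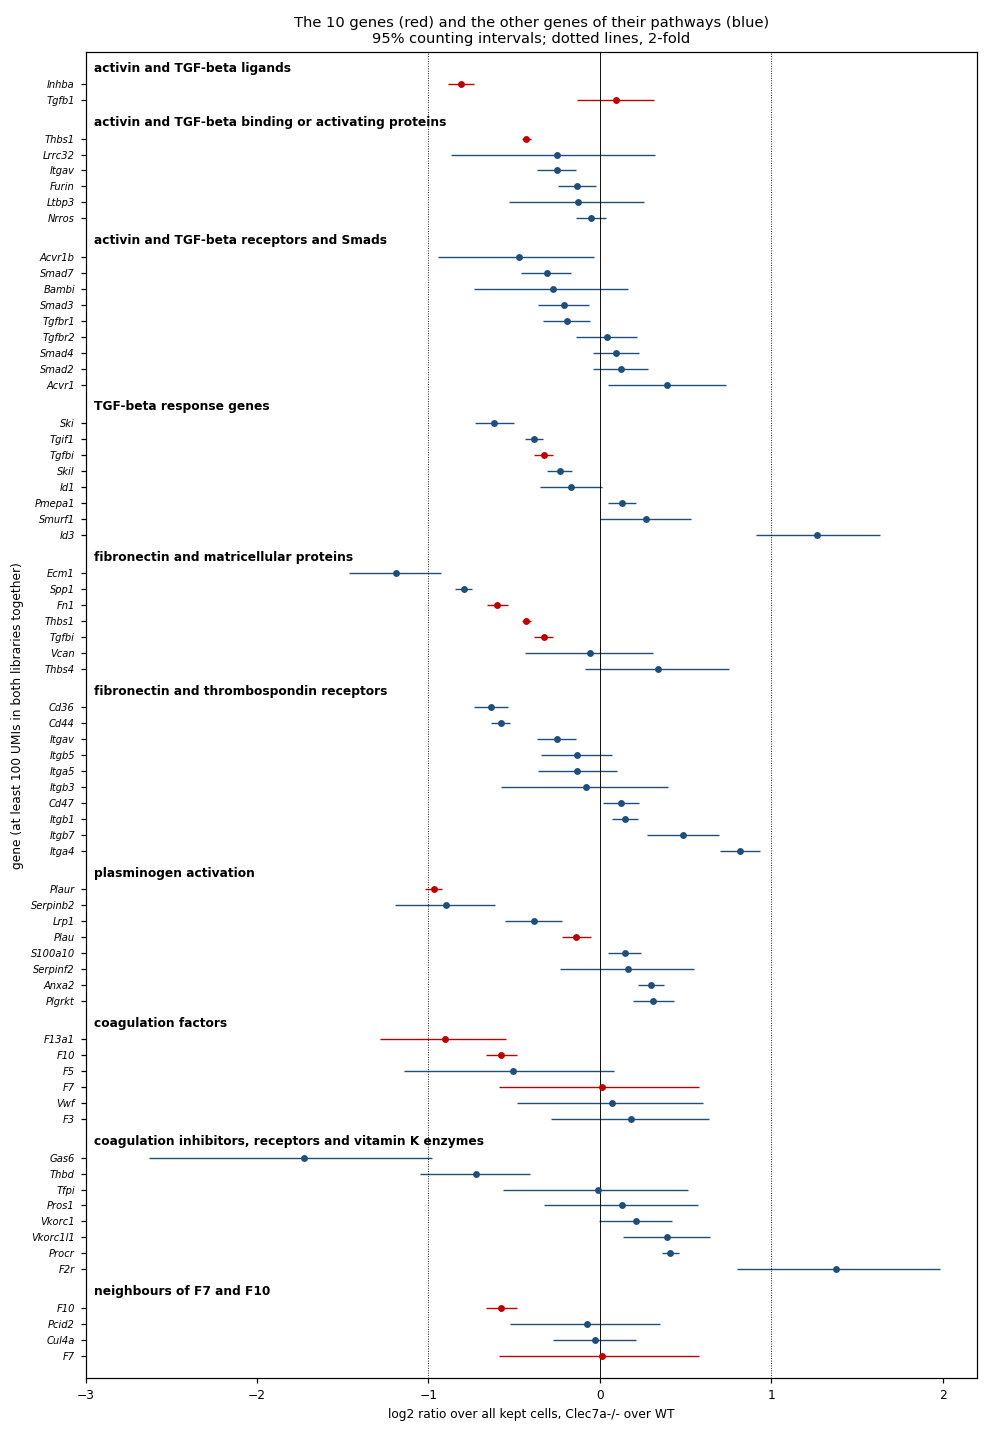
Log2 ratio over all kept cells, Clec7a-/- over WT library, of the 10 genes (red) and of the other genes of their pathways (blue) with at least 100 UMIs, by list, with 95% counting intervals and dotted lines at 2-fold. Ecm1 and Gas6 lie left of the 2-fold line, Id3 and F2r right of it, and the intervals of F7, Tgfb1, F3, F5 and Vwf span 0.

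Of the coagulation factors other than the members, F3 (tissue factor), F5 and Vwf had at least 100 UMIs, with 168, 113 and 125. F3 had 8.06 CPM in the WT and 9.13 CPM in the Clec7a-/- library, with 0.18 (−0.29 to 0.64), F5 had 6.43 and 4.50 CPM, and Vwf had 6.19 and 6.48 CPM. F2, prothrombin, had 1 UMI, F9 had 21, and F11, F13b, Fga, Fgb and Fgg had 0. F10 and F7 were thus the vitamin K-dependent factors of the list with at least 100 UMIs, with 4726 and 110. Ggcx, the γ-carboxylase that such factors need, had 23 UMIs, while Vkorc1, which recycles vitamin K for it, had 35.0 and 40.5 CPM and Vkorc1l1 had 23.5 and 30.8 CPM. Procr, the endothelial protein C receptor, was highest in cluster 10, part of the DC-like class, with 3749 CPM. It had 617 and 821 CPM over all kept cells, 0.41 (0.36 to 0.46), and −0.74 with the mix held fixed. F2r, a thrombin receptor, was at least 2-fold higher, with 3.34 and 8.73 CPM, 1.38 (0.80 to 1.99), and was highest in T-cell-like cells, at 199 CPM. With the mix held fixed it was at 0.49, short of 2-fold. T-cell-like cells made up 2.49% of the kept WT cells and 6.05% of the Clec7a-/- cells. Gas6, a vitamin K-dependent ligand of Axl and Mertk, was at least 2-fold lower, with 7.16 and 2.12 CPM, −1.72 (−2.63 to −0.98), from 88 and 16 UMIs.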

How the data were processed

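Sorted CD11b+ and CD11c+ polyp cells were profiled in 1 WT and 1 Clec7a-/- library with a 3′ microwell kit (the description in the labels names another platform). The authors deposited, per library, a matrix of whole-number UMI counts without normalization. The submitters' processing notes name Cell Ranger 2.1.1 and mm10, without a role. Of 32285 gene identifiers, 32158 were found in GENCODE M21.

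The members, lists and alternatives were chosen with earlier results of these data known. Kept cells had 200 to 4000 genes, and no more than 5% of UMIs were mitochondrial. Seurat 5.3.0 (R 4.3.3) clustered them on 1962 variable features, after LogNormalize to 10000, with 20 principal components and resolution 0.8, the lowest giving at least 15 clusters. Scrublet, in scanpy 1.11.5, called 0 and 2 doublets, which is too few to be of use, and none were removed. UMIs were summed per library and class, and log2 ratios used a pseudocount of 0.5 UMI and at least 100 UMIs. Intervals were exact Poisson for levels, exact conditional for ratios and Clopper-Pearson for shares, at 95%. For the fixed mix of clusters a normal approximation on the log scale was used. A count of 0 was given a limit of 3 UMIs. Cells were thinned to 1000 UMIs with seed 1. edgeR 4.0.16 gave TMM factors. Python 3.11.15, numpy 2.4.6, scipy 1.17.1, pandas 2.3.3 and matplotlib 3.10.9 were used, and the ratios were tested on simulated data. Named genes are the 10 members, 3 others per list by UMIs, those past 2-fold, the 3 nearest profiles of each member and the leading genes of clusters. Clec7a and 1 gene of the lists are not reported here.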

Additional observations from a re-analysis of the deposited data

Results flagged for a closer look

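Among the 10 genes, Tgfbi, Thbs1, Plau and F10 had log2 ratios, Clec7a-/- over WT, that lay beyond counting error in opposite directions in different classes of cells. The difference between the classes was not tested, since there was 1 library per genotype. Tgfbi was at −0.22 in macrophage-like cluster 7 and at 0.20 in transitional-like cells. Thbs1 was at −0.32 in cluster 7, where its level was no higher than that of T-cell-like cells, and at 0.60 in neutrophil-like cells. Plau was at −2.01 in cluster 5 and at 0.93 in macrophage-like cluster 4. F10 was at −0.52 in cluster 5, a value that turned to 0.07 with TMM scaling, and at 0.55 in neutrophil-like cells. Of these, Plau had the widest span, and its 2 macrophage-like clusters lay above 0 in all 13 alternatives run for each, while monocyte-like cells, neutrophil-like cells and cluster 5 lay below 0 in all 14.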

How the results depend on the processing

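The number of members highest in monocyte-like, transitional-like or macrophage-like clusters was 9 under every alternative run, again without a share of all genes beside it. Alternatives that act only on the ratios, such as the threshold of 1.5-fold, could not change this number. The highest class of Plau moved from cluster 7 to cluster 4 with 500 to 6000 genes, with cells of at least 1000 UMIs only and with integration by reciprocal PCA. The 8 within-class differences past 2-fold toward lower levels became 5 after removal of the top 5% of Scrublet scores, with 10 principal components or with a pseudocount of 5 UMIs, and 13 at a threshold of 1.5-fold. The 0 toward higher levels became 1 with a limit of 10% mitochondrial UMIs, with 500 to 6000 genes, with the Scrublet removal, with cells of at least 1000 UMIs only or with no filter on cells (Plau in cluster 4 each time), 1 with TMM scaling (Thbs1 in cluster 5) and 2 at 1.5-fold. Over all kept cells the 0 members past 2-fold toward lower levels became 2 with 10% mitochondrial UMIs or TMM scaling (Plaur and F13a1), 1 with cells of at least 1000 UMIs (Plaur), 1 with a mean over cells (F13a1), 3 with no filter on cells (Inhba, Plaur and F13a1) and 4 at 1.5-fold. The median ratio at a fixed mix of clusters went from 0.04 to −0.13 with TMM scaling, which subtracts the shift of all kept cells, 0.17, from every gene alike and so does not move the members relative to other genes. Of the 62 single ratios, 21 changed sign under some alternative, and 1 past 2-fold reversed, Fn1 in DC-like cells, which was 0.27 with no filter on cells. The cause was not tested. The settings without a filter and without shared barcodes were chosen after seeing the data. With 30 components no cluster matched cluster 4, and at the lower resolution none matched cluster 7, so these gave no value. No paired analysis was possible because each genotype had 1 library. Depth limits F7, F13a1 and Tgfb1 most, and pooled mice leave differences between animals unmeasured.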

Other observations

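Barcodes outside the filter held most of these transcripts at lower levels than kept cells. In the 771 WT and 1081 Clec7a-/- barcodes not kept, Inhba had 168 CPM (155 to 182) and 65.0 CPM (57.5 to 73.1), Fn1 had 404 and 224 CPM, Thbs1 had 712 and 605 CPM, and F10 had 41.3 and 36.5 CPM. The exceptions were Plau, with 259 CPM (243 to 276) and 238 CPM (224 to 253), close to its level over kept cells, 247 and 224 CPM, and Tgfbi, with 765 CPM (737 to 794) in the WT library, above its 722 CPM in kept cells, and 424 CPM in the Clec7a-/- library.

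A cluster of 17 WT and 6 Clec7a-/- cells, led by Rsad2, Ccl5, Plac8 and Inhba and too small to name, had the highest Inhba level in the Clec7a-/- library, 3489 CPM (2636 to 4531) from 56 UMIs, against 1348 CPM (1064 to 1685) from 77 UMIs in the WT library. It also held Thbs1, at 6584 and 5545 CPM, and F10, at 788 and 561 CPM.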
